A study of Mus musculus and Homo sapiens with 34 samples.

Results

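The CXC chemokines of the neutrophil-attracting cluster were examined in every library of a study of lung tumour cells. The 6 mouse genes are Cxcl1, Cxcl2, Cxcl3, Cxcl5, Ppbp and Cxcl15, and the human genes are CXCL1, CXCL2, CXCL3, CXCL5, CXCL6 and CXCL8. They were chosen by gene symbol with no threshold on their values, but the family was picked with earlier results of these data in view, namely its changes against the matching vehicle, so those changes, and the differences between them, are given as a description without a p-value. The 6 mouse genes stand among 21401 genes of the mouse tables, and the 6 human genes among 27030 genes of the human tables; PPBP was not analysed here.

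These chemokines carry a glutamate-leucine-arginine motif ahead of the CXC cysteines. Most of them bind the receptor CXCR2, and some also CXCR1, through which they draw neutrophils out of the blood. Epithelial cells make several of them when NF-kB is activated by interleukin-1, interleukin-17, tumour necrosis factor or bacterial products, and AU-rich elements in their messages let decay factors shorten their lifetime. In tumours of the lung they are studied as signals by which the tumour cells recruit myeloid cells.

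Messenger RNA was sequenced in 34 libraries, 2 from each of 17 groups. Mouse 3154 lung organoids carry p53frt, Rosa-FSF-CreERT2 and Hnf4aflox among their alleles, so 4-hydroxytamoxifen (4OHT) activates Cre and deletes Hnf4a, which encodes a transcription factor of the gut and liver lineages. They were exposed to 2 mM 4OHT (as the labels give the dose) or ethanol for 2 days and harvested 2 weeks later. A further set received 4OHT or ethanol and the inhibitor MRTX1133 at 3 nM or vehicle, with 48 hours of treatment. Its 4OHT dose and the time between 4OHT and harvest are not known here. In what follows, 48 hours therefore names this set and not the age of the deletion. Mouse 1027B organoids and the mouse 3311 lung cell line carry p53frt and Rosa-FSF-CreERT2 with Foxa1flox and Foxa2flox among their alleles, and their labels name no deletion of either Foxa gene. For 48 hours, 1027B organoids received vehicle, the MEK inhibitor trametinib at 10 nM, or MRTX1133 at 20 nM, while in 3311 cells the trametinib dose was 50 nM. The human lung adenocarcinoma line H1651 carried a lentiviral HNF4α construct and was grown with or without 1 µg/mL doxycycline for 7 days; in a further test of H1651 and in H358, trametinib was used at 20 nM over 48 hours against its vehicle. Each mouse culture is a single line grown in vitro, and nothing states that the 2 libraries of a group came from separate cultures, so the errors measure only the spread between those libraries, which may be technical.

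Libraries held 19692517 to 45284286 counts. Levels are given as CPM, read counts divided by the library's scaled total, means as ± SD over 2 libraries (n = 2), and changes as log2 fold changes ± standard error (SE) from edgeR's quasi-likelihood fit over all genes of a table. A gene was called changed at an adjusted p under 0.05. The deleted gene Hnf4a had 9550 and 9516 counts with ethanol and 1629 and 1813 counts 2 weeks after 4OHT, and at 48 hours with vehicle 5247 and 5483 counts against 1303 and 1128 counts. HNF4A in H1651 had 1142 and 941 counts without doxycycline and 2401 and 2193 counts with it, and 0 counts in all 4 H358 libraries. Of 5 target genes of ERK signalling (Dusp6, Spry2, Spry4, Etv4 and Etv5), all 5 fell with trametinib in 1027B, 3311 and H358, 3 fell with MRTX1133 in 1027B, 3 with MRTX1133 in 3154 after 4OHT and 0 with MRTX1133 in 3154 with ethanol (1 at an unadjusted p under 0.05, 0 by DESeq2) or with trametinib in H1651 (5 unadjusted, 2 by DESeq2). Epithelial marker genes summed to 6158 to 10911 CPM in the mouse libraries and 3601 to 6927 CPM in the human libraries.

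The 6 mouse genes lie in 1 cluster on chromosome 5, all on the + strand, from 90759360 to 90905938 of GRCm38 (146579 bases), in the order Cxcl5, Ppbp, Cxcl3, Cxcl15, Cxcl1 and Cxcl2, with the platelet chemokine gene Pf4 between Ppbp and Cxcl3. None of their exon bases overlaps another annotated gene. Of the 75-base words in the exons, 2.78% of those of Cxcl3 are shared with Cxcl2 and 4.57% of those of Cxcl2 with Cxcl3, so a small part of the reads of this pair could be split or dropped in counting. Promoters of 5 members were found in the RefSeq table (GRCm38.p6). The 120 bases before RefSeq's start of each gene are printed so that promoters of members called higher in the 2-week Hnf4a deletion with an NF-kB match (Cxcl1, Cxcl2 and Cxcl3) and without one (Ppbp) can be read beside that of Cxcl15, which was not called there, with capitals marking matches of the NF-kB motif GGNNTTTCC or its reverse complement:

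Cxcl1 (chr5:90891125-90891244, + strand): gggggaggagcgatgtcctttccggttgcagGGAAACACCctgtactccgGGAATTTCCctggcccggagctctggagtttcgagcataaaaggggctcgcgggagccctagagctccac
Cxcl2 (chr5:90903779-90903898, + strand): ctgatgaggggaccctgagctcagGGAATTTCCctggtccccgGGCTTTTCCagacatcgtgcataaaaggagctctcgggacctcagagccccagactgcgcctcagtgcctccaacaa
Cxcl3 (chr5:90785981-90786100, + strand): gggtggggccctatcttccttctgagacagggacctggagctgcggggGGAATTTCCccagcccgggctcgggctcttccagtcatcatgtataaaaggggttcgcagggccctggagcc
Ppbp (chr5:90768398-90768517, + strand): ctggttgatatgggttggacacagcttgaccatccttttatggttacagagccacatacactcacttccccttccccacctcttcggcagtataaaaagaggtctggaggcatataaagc
Cxcl15 (chr5:90794414-90794533, + strand): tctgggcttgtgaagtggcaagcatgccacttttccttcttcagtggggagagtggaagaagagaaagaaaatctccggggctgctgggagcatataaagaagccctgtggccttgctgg

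Cxcl1 and Cxcl2 hold 2 matches each and Cxcl3 holds 1, and all 3 share the letters GGAATTTCC on the + strand. Ppbp and Cxcl15 hold none in these 120 bases or in the 250 bases before the start. Among 32851 promoters of 250 bases, 4.93% hold the NF-kB motif on either strand. In the same 250 bases the AP-1 motif TGANTCA was found in Ppbp alone (6.75% of promoters), and neither the C/EBP motif TTGCAA (5.34%) nor the HNF4 motif CAAAGTCCA (0.384%) was found in any of the 5. The TATA-like letters ATAAAA were found in all but Cxcl15 (17% of promoters). The printed bases of Cxcl15 do hold TATAAA near the start, as do those of Cxcl3 and Ppbp. Cxcl15 thus lacks the string ATAAAA and not every TATA-like string, since TATAAA was not among the motifs searched. These motifs were chosen after the files had been read, on both strands, and no match of another motif overlaps an NF-kB match. A match of letters is a description and not a binding site.

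The 2-week comparison asked which genes differ once Hnf4a has been lost for long. After 4OHT, Cxcl1, Cxcl3 and Ppbp reached means of 20.8, 28.4 and 26.2 CPM, from below 1 CPM with ethanol. The 5 members Cxcl1, Cxcl2, Cxcl3, Cxcl5 and Ppbp were called higher after 4OHT, of 6 tested, where 9.81% of 14492 genes tested were called in either direction; since this contrast is among those that chose the family, the count is a description. The members' median log2 fold change was 4.97, or 4.85 with Cxcl2 set at the floor of 3 counts, against 0.02 over all genes tested.

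Cxcl1, a ligand of Cxcr2 also known as KC, had 0.560 and 0.629 CPM with ethanol (17 and 14 counts) and 18.1 and 23.5 CPM after 4OHT (550 and 628 counts). Its mean went from 0.595 ± 0.0483 to 20.8 ± 3.88 CPM (SD, n = 2), a log2 fold change of 5.12 ± 0.28 (SE). Both 4OHT libraries were far above both ethanol libraries. Cxcl3, a close relative that also signals through Cxcr2, had 0.956 and 0.808 CPM with ethanol and 27.6 and 29.3 CPM after 4OHT, a log2 fold change of 4.99 ± 0.22 (SE). Its 4OHT libraries lay closer together than those of Cxcl1. Cxcl2, or MIP-2, had 0 and 1 counts with ethanol and 25 and 47 counts after 4OHT (0.821 and 1.76 CPM). With 1 count in the reference group, the ratio of summed counts, scaled to library size, was 66.3 with an exact counting interval of 11.5 to 2653 (95%), which covers counting error only. Cxcl2 had the lowest level of the 6 after 4OHT, also per kilobase.

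Cxcl5, the epithelial chemokine also called LIX in mice, had 10 and 4 counts with ethanol (0.330 and 0.180 CPM) and 254 and 217 counts after 4OHT (8.34 and 8.13 CPM), a log2 fold change of 4.95 ± 0.38 (SE). The groups did not overlap. Ppbp, which encodes platelet basic protein and is known for its abundance in megakaryocytes and platelets, had 1.05 and 0.853 CPM with ethanol and 27.9 and 24.4 CPM after 4OHT, a log2 fold change of 4.76 ± 0.24 (SE). Its groups also lay apart, and its change was of the size seen for Cxcl1, Cxcl3 and Cxcl5. Cxcl15, or lungkine, a chemokine of mouse lung epithelium with no known human counterpart, had 51.7 and 14.0 CPM with ethanol and 99.98 and 81.2 CPM after 4OHT. Its groups did not overlap, but the ethanol libraries differed from each other by more than the 4OHT libraries did, and its log2 fold change of 1.46 ± 0.56 (SE) was not called. It was 2.68 without replicate 1 of ethanol and 0.81 without replicate 2, and it was called in each of these fits. Leaving out replicate 2 of 4OHT ended the call of Cxcl2.

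**Figure D1:**
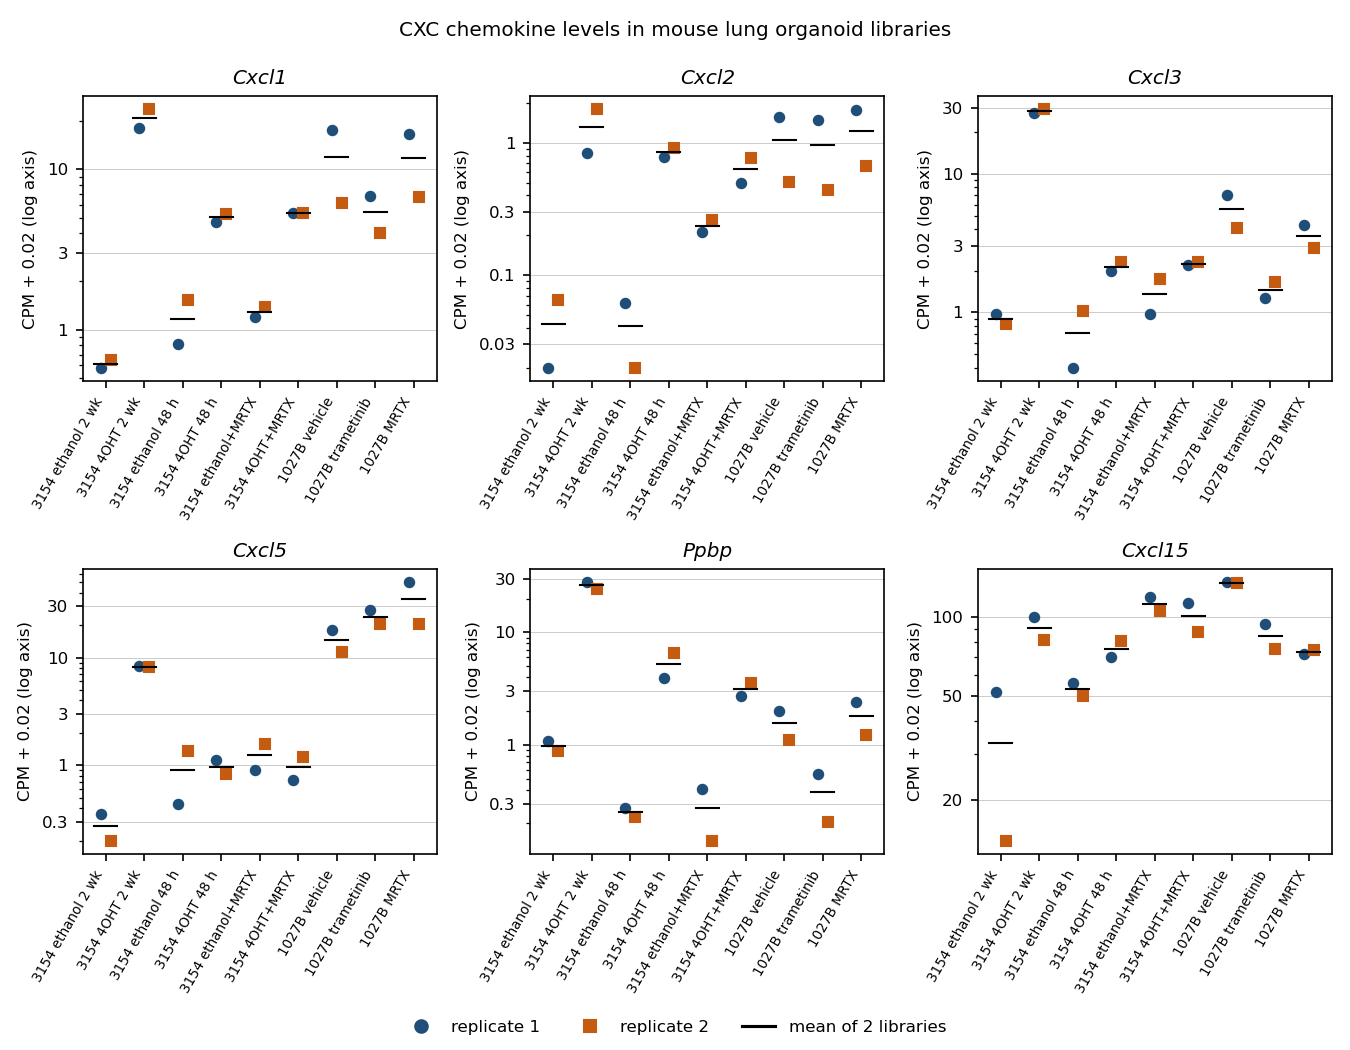
Level of each mouse family member (CPM + 0.02, log axis) in each organoid library, by group; circles are replicate 1, squares replicate 2 and bars the mean of 2 libraries. After 2 weeks of Hnf4a deletion Cxcl1, Cxcl3 and Ppbp have means of 20.8, 28.4 and 26.2 CPM against 0.595, 0.882 and 0.954 CPM with ethanol; the 3 tables (3154 at 2 weeks, 3154 at 48 hours, 1027B) were scaled separately.

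The makeup of the family differed with the deletion as well. Per kilobase of exon, Cxcl15 gave 93.4% and 81.7% of the summed level of the 6 members in the ethanol libraries and 49.4% and 43.9% after 4OHT. Ppbp gave 3.7% and 9.8% with ethanol and 27.1% and 26.0% after 4OHT. On this per-length scale the order of mean levels after 4OHT was Cxcl15 (42.6 ± 6.25 CPM per kilobase; SD, n = 2), Ppbp (24.1 ± 2.24), Cxcl1 (11.1 ± 2.07), Cxcl3 (8.13 ± 0.344), Cxcl5 (4.42 ± 0.0771) and Cxcl2 (0.624 ± 0.322), and no neighbours in this order overlapped over the 2 libraries. With ethanol Cxcl15 was again first at 15.4 ± 12.5 CPM per kilobase, and Ppbp second at 0.881 ± 0.132.

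Markers of blood cells were looked at beside these changes. Neutrophil markers summed to 5.37 and 15.9 CPM with ethanol and 1.74 and 4.42 CPM after 4OHT, with 4 of 9 listed and Csf3r, Mpo, Elane, Camp and Ngp at 0 or with no row. Macrophage and leukocyte markers summed to 18.6 and 44.7 CPM against 10.1 and 13.5 CPM (4 of 6 listed; Adgre1 and Tyrobp at 0 or with no row). Megakaryocyte and platelet markers summed to 0.989 and 0.539 CPM against 1.21 and 1.99 CPM, with Gp9, Gp6 and Gp1ba at 0 or with no row. Thus the neutrophil and macrophage sums were lower and the platelet sum higher in the libraries with the higher chemokine levels, while the summed epithelial markers ranged from 10075 to 10345 CPM with ethanol and from 9450.4 to 10911 CPM after 4OHT. Fibroblast markers summed to 0.264 and 0.0898 CPM with ethanol and 0.853 and 0.412 CPM after 4OHT (1 of 6 listed), and endothelial markers to 11.6 and 13.7 CPM against 6.11 and 11.7 CPM (3 of 4 listed). The part of these markers in the result was not tested. In bulk RNA fewer cells of a type and less RNA per cell cannot be told apart.

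The same deletion was measured in a separate set of organoids with vehicle, for which the labels' protocol gives 48 hours of treatment. Again 5 of the 6 members were called higher, where 31.0% of 15458 genes were called in either direction, but they were not the same 5. The median log2 fold change of the 6 was 1.86, also with Cxcl2 at the floor, against 0.01 over all genes. The spread between the members was wide, from a ratio of summed Cxcl2 counts of 39.0 down to overlapping values for Cxcl5.

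Ppbp had 0.252 and 0.210 CPM with ethanol and 3.91 and 6.47 CPM with 4OHT, a log2 fold change of 4.46 ± 0.49 (SE). Cxcl2 had 1 and 0 counts with ethanol and 20 and 20 counts with 4OHT, a ratio of 39.0 with an exact counting interval of 6.62 to 1580.1 (95%). Both genes separated fully by treatment. Cxcl1 had 0.799 and 1.51 CPM with ethanol and 4.70 and 5.27 CPM with 4OHT, a log2 fold change of 2.10 ± 0.30 (SE). Cxcl3 had 0.379 and 1.01 CPM with ethanol and 1.97 and 2.28 CPM with 4OHT, a log2 fold change of 1.61 ± 0.45 (SE). The 2 ethanol libraries of Cxcl1 and Cxcl3 were unequal, with replicate 2 the higher. Cxcl3 was no longer called with only these 2 groups fitted, without replicate 1 of ethanol (log2 fold change 1.06) or without either 4OHT library, and its log2 fold change was 2.46 without replicate 2 of ethanol.

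Cxcl15 had 55.9 and 49.8 CPM with ethanol and 70.0 and 80.6 CPM with 4OHT, a log2 fold change of 0.51 ± 0.16 (SE). It was called, but not with RLE scaling, with no filter on low counts, with only these 2 groups fitted, without replicate 2 of ethanol or without either 4OHT library. Cxcl5 had 0.421 and 1.34 CPM with ethanol and 1.10 and 0.804 CPM with 4OHT, which overlap, and a log2 fold change of 0.12 ± 0.56 (SE). Thus Cxcl5, with 8.34 and 8.13 CPM after 2 weeks, was near 1 CPM in both groups of the 48-hour set. The sets were scaled separately and the difference between them was not tested. Neutrophil markers summed to 1.72 and 5.62 CPM with ethanol and 0.531 and 0.848 CPM with 4OHT (3 of 9 listed; Csf3r, Cxcr2, Mpo, Elane, Camp and Ngp at 0 or with no row), again lower where the chemokines were higher. Macrophage and leukocyte markers summed to 5.64 and 5.50 CPM with ethanol against 5.31 and 5.76 CPM, and platelet markers to 1.09 and 0.504 CPM against 0.834 and 0.804 CPM. Fibroblast markers summed to 0.337 and 0.168 CPM against 0.493 and 0.447 CPM, and endothelial markers to 2.15 and 1.01 CPM against 2.39 and 3.35 CPM. The part of these markers in the result was not tested.

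With MRTX1133 in place of vehicle, 2 of the 6 members, Cxcl1 and Ppbp, were called higher with 4OHT than with ethanol, where 27.7% of 15458 genes were called. Cxcl1 had 1.19 and 1.37 CPM with ethanol and MRTX1133 and 5.32 and 5.32 CPM with 4OHT and MRTX1133, a log2 fold change of 2.06 ± 0.29 (SE). Ppbp had 0.383 and 0.121 CPM against 2.72 and 3.55 CPM, a log2 fold change of 3.60 ± 0.48 (SE). Neither gene's groups overlapped. Cxcl2 had 5 and 6 counts against 12 and 21 counts, and Cxcl3 had 0.957 and 1.73 CPM against 2.17 and 2.31 CPM; neither was called, although neither overlapped. Cxcl5 (0.880 and 1.57 CPM against 0.710 and 1.17 CPM) and Cxcl15 (118.5 and 105.4 CPM against 112.9 and 87.5 CPM) overlapped. With 4OHT and MRTX1133 neutrophil markers summed to 0.591 and 0.426 CPM, against 1.11 and 3.74 CPM with ethanol and MRTX1133. The fibroblast sums were 0.473 and 0.426 CPM against 0.115 and 0.121 CPM, and the endothelial sums 4.49 and 4.51 CPM against 2.45 and 1.85 CPM, with epithelial markers at 7293 and 6795 CPM against 7319 and 7641 CPM. The neutrophil and epithelial sums were thus lower and the fibroblast and endothelial sums higher with 4OHT, without overlap, and their part in the result was not tested.

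**Figure D2:**
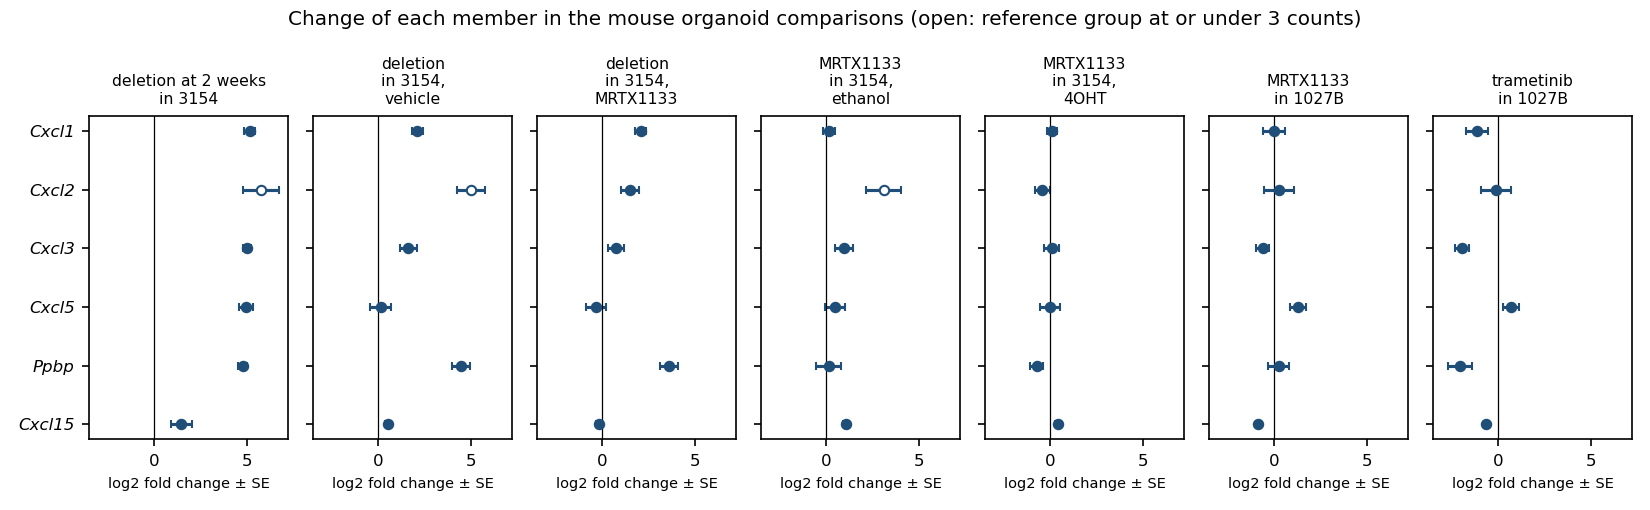
Log2 fold change of each mouse member with its SE in 7 organoid comparisons; open points have a reference group at or under 3 counts in each library, so their position depends on the fit. In the 2-week deletion Cxcl1, Cxcl3, Cxcl5 and Ppbp lie between 4.76 and 5.12 and Cxcl15 at 1.46, while Cxcl1 lies at 0.14 and 0.10 with MRTX1133 in 3154.

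The family was then compared between MRTX1133 and vehicle in 3154 organoids with Hnf4a intact or deleted. These comparisons share their libraries with the deletion comparisons at 48 hours. With ethanol, 1 of the 6 members was called (0.349% of 15458 genes): Cxcl15 was higher, with 55.9 and 49.8 CPM in vehicle and 118.5 and 105.4 CPM with MRTX1133, a log2 fold change of 1.08 ± 0.16 (SE). Its groups were well apart, but the call was lost with RLE scaling, with at least 10 counts required in every library, with only these 2 groups fitted, without replicate 1 of vehicle and without either MRTX1133 library. Cxcl2 had 1 and 0 counts in vehicle and 5 and 6 counts with MRTX1133, a ratio of 10.3 with an exact counting interval of 1.49 to 441.9 (95%); it was not called. Cxcl1, Cxcl3, Cxcl5 and Ppbp overlapped between the groups, with log2 fold changes from 0.13 to 0.95. Macrophage markers summed to 5.64 and 5.50 CPM in vehicle and 5.36 and 2.69 CPM with MRTX1133, and fibroblast markers to 0.337 and 0.168 CPM against 0.115 and 0.121 CPM, both lower without overlap. Their part in the result was not tested.

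With 4OHT, 0 of the 6 members were called with MRTX1133 by edgeR, where 4.64% of 15458 genes were; 1 member, Cxcl15, had an unadjusted p under 0.05, and DESeq2 called 0. Cxcl15 had 70.0 and 80.6 CPM in vehicle and 112.9 and 87.5 CPM with MRTX1133, which did not overlap (log2 fold change 0.41 ± 0.16 SE). Ppbp had 3.91 and 6.47 CPM in vehicle and 2.72 and 3.55 CPM with MRTX1133, lower without overlap (log2 fold change -0.72 ± 0.35 SE). Cxcl2 had 20 and 20 counts in vehicle and 12 and 21 counts with MRTX1133. Cxcl1 had 4.70 and 5.27 CPM against 5.32 and 5.32 CPM, and Cxcl3 and Cxcl5 overlapped with log2 fold changes of 0.08 and -0.02. Endothelial markers summed to 2.39 and 3.35 CPM in vehicle and 4.49 and 4.51 CPM with MRTX1133, platelet markers to 0.834 and 0.804 CPM against 1.42 and 1.21 CPM, and epithelial markers to 8214 and 7854 CPM against 7293 and 6795 CPM. None of these sums overlapped between the groups, and their part in the result was not tested.

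The effect of MRTX1133 was set against itself between 4OHT and ethanol with an interaction term. For each member this is the difference of the 2 changes against vehicle given above, which were in view when the family was picked, so its values are a description. By edgeR 0% of 15458 genes were called (1150 had an unadjusted p under 0.05, and DESeq2 called 36 genes), and 0 of the 6 members were (2 unadjusted, Cxcl2 and Cxcl15; 0 by DESeq2). The log2 difference was -0.67 ± 0.23 (SE) for Cxcl15 and -3.51 ± 1.02 for Cxcl2, which rests on the ethanol vehicle group with 1 count. It was -0.05 ± 0.41 for Cxcl1, -0.87 ± 0.61 for Cxcl3, -0.48 ± 0.78 for Cxcl5 and -0.85 ± 0.77 for Ppbp. These errors are wide, and the values do not show that the effects were alike.

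In 1027B organoids Cxcl15 and Cxcl5 were the most abundant members, and the inhibitors were compared with vehicle. With trametinib 2 of the 6 members, Cxcl3 and Cxcl15, were called lower, where 26.7% of 14555 genes were called in either direction. The members' median log2 fold change was -0.90 against -0.01 over all genes. Cxcl3 had 7.02 and 4.06 CPM in vehicle and 1.25 and 1.63 CPM with trametinib, a log2 fold change of -1.94 ± 0.39 (SE), and was no longer called without replicate 1 of either group. Cxcl15 had 135.1 and 134.3 CPM in vehicle and 93.8 and 75.2 CPM with trametinib, a log2 fold change of -0.67 ± 0.12 (SE). Both separated fully by treatment.

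Ppbp had 1.99 and 1.08 CPM in vehicle and 0.534 and 0.187 CPM with trametinib, a log2 fold change of -2.07 ± 0.65 (SE). Cxcl5 had 17.9 and 11.3 CPM in vehicle and 27.5 and 20.3 CPM with trametinib, a log2 fold change of 0.71 ± 0.43 (SE). Neither overlapped and neither was called. Cxcl1 had 17.5 and 6.17 CPM in vehicle and 6.81 and 3.96 CPM with trametinib, which overlap (log2 fold change -1.14 ± 0.60 SE, and -0.20 without replicate 1 of vehicle), and Cxcl2 had 32 and 9 counts against 33 and 9 counts. Replicate 1 was above replicate 2 for Cxcl1, Cxcl2, Cxcl5 and Ppbp in all 3 groups. With the replicate number as a block, 5 of the 6 were called with trametinib: Cxcl1, Cxcl3, Ppbp and Cxcl15 lower and Cxcl5 higher.

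With 20 nM MRTX1133, 1 of the 6 members, Cxcl15, was called lower, where 6.27% of 14555 genes were called. It had 72.2 and 74.6 CPM against 135.1 and 134.3 CPM in vehicle, a log2 fold change of -0.88 ± 0.12 (SE), but was not called when any 1 of these 4 libraries was left out. Cxcl5 had 50.0 and 20.3 CPM with MRTX1133 against 17.9 and 11.3 CPM in vehicle, without overlap (log2 fold change 1.27 ± 0.43 SE, and 0.48 without replicate 1 of MRTX1133). With the replicate block 2 were called, Cxcl15 lower and Cxcl5 higher. Cxcl1 (16.6 and 6.73 CPM), Cxcl2 (1.75 and 0.648 CPM), Cxcl3 (4.23 and 2.89 CPM) and Ppbp (2.38 and 1.20 CPM) overlapped with vehicle. Neutrophil markers summed to 0.0933 to 0.623 CPM over the 6 libraries of 1027B (3 of 9 listed), macrophage markers to 7.85 to 8.28 CPM in vehicle, 6.62 to 7.26 CPM with trametinib and 5.43 to 5.53 CPM with MRTX1133 (4 of 6 listed), and platelet markers, which count the neighbouring gene Pf4, to 2.61 to 3.74, 1.03 to 2.00 and 1.25 to 1.597 CPM (2 of 5 listed). The macrophage and platelet sums were thus lower with the inhibitors, as were Cxcl3 and Cxcl15 with trametinib. Endothelial markers summed to 2.86 and 3.95 CPM in vehicle, 8.10 and 10.03 CPM with trametinib and 4.57 and 7.13 CPM with MRTX1133 (2 of 4 listed). Fibroblast markers summed to 0.533 and 0.921 CPM, 1.69 and 1.03 CPM, and 1.11 and 1.69 CPM (2 of 6 listed), and epithelial markers to 9170.5 and 9027 CPM, 7418 and 8259.7 CPM, and 8126 and 7992 CPM. The endothelial and fibroblast sums were thus higher and the epithelial sums lower with both inhibitors, and the part of these markers in the result was not tested.

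MRTX1133 and trametinib in 1027B were also set against each other. This contrast is the difference of their changes against the shared vehicle libraries, so the members' values are again a description. By edgeR 0% of 14555 genes were called (2357 had an unadjusted p under 0.05, and DESeq2 called 712), and 0 of the 6 members (2 unadjusted, Cxcl3 and Ppbp; 0 by DESeq2). The log2 difference, MRTX1133 minus trametinib, was 2.30 ± 0.64 (SE) for Ppbp and 1.31 ± 0.39 for Cxcl3, both higher with MRTX1133 without overlap. It was 1.12 ± 0.60 for Cxcl1, 0.36 ± 0.79 for Cxcl2 and 0.56 ± 0.42 for Cxcl5, which overlapped, and -0.20 ± 0.12 for Cxcl15, lower without overlap. With the replicate block the count of members called was 3 (Cxcl1, Cxcl3 and Ppbp), with log2 differences of 1.05, 1.28 and 2.31. The doses were 10 nM and 20 nM and were not matched.

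In the 3311 line, grown in medium with serum, few reads came from the family. Of the 6 members, Cxcl1 and Cxcl5 have values here, the other 4 were not analysed here, and Cxcl1 alone passed the filter on low counts. Cxcl1 had 21 and 37 counts in vehicle and 13 and 19 counts with trametinib (0.780 and 1.47 CPM against 0.466 and 0.723 CPM), a log2 fold change of -0.92 ± 0.53 (SE). It was not called (0 of 1; 0 at an unadjusted p under 0.05 and 0 by DESeq2), where 39.0% of 15224 genes were. Cxcl5 had 1 and 3 counts against 3 and 0 counts, which is at or under the floor of 3 counts in each library. Macrophage and leukocyte markers summed to 9.55 and 15.7 CPM in vehicle and 21.8 and 28.6 CPM with trametinib (3 of 6 listed), higher without overlap. Other sums were lower without overlap: fibroblast markers at 15.8 and 14.9 CPM against 14.4 and 11.4 CPM (4 of 6 listed), endothelial markers at 3.23 and 4.14 CPM against 2.83 and 2.36 CPM (2 of 4 listed), platelet markers at 7.32 and 6.25 CPM against 5.52 and 5.63 CPM (1 of 5 listed) and neutrophil markers, here Cxcr2 alone, at 0.223 and 0.159 CPM against 0. Epithelial markers, at 7535 and 9686 CPM against 6158 and 7907 CPM, overlapped. The part of these markers in the result was not tested.

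The genes around the cluster were looked at beside its members. Of 13 protein-coding neighbours within 500000 bases, a rule set after the files were read, 11 were tested in the 2-week comparison, where 9.81% of all genes were called: 0 were called higher and 1, Afm, lower (3.98 to 0.0187 CPM, edgeR adjusted p = 0.0171), with a median log2 fold change of -0.42. Afm encodes afamin, a plasma protein of the liver like its neighbours Alb and Afp. At 48 hours with vehicle (31.0% of all genes called) 1 of 11 was called higher, Ereg (43.7 to 129 CPM, log2 fold change 1.56, edgeR adjusted p = 0.0191), and 0 lower. With MRTX1133 present (27.7%) 0 were called higher with 4OHT and 1 of 11 lower, Alb (1.06 to 0.0749 CPM, edgeR adjusted p = 0.0151). Ereg and Areg encode epidermal growth factor receptor ligands. With trametinib in 1027B (26.7% of all genes called), 3 of 11 were called lower: Pf4, Ereg and Areg (log2 fold changes -2.34, -1.95 and -2.09). With MRTX1133 (6.27%) 2 of 11 were called lower, Ereg and Areg, and with trametinib in 3311 (39.0%), 5 of 11 lower and 1 higher. Pf4, which sits inside the cluster, had 0.237 CPM with ethanol and 0.314 CPM 2 weeks after 4OHT and was not tested there.

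**Figure D3:**
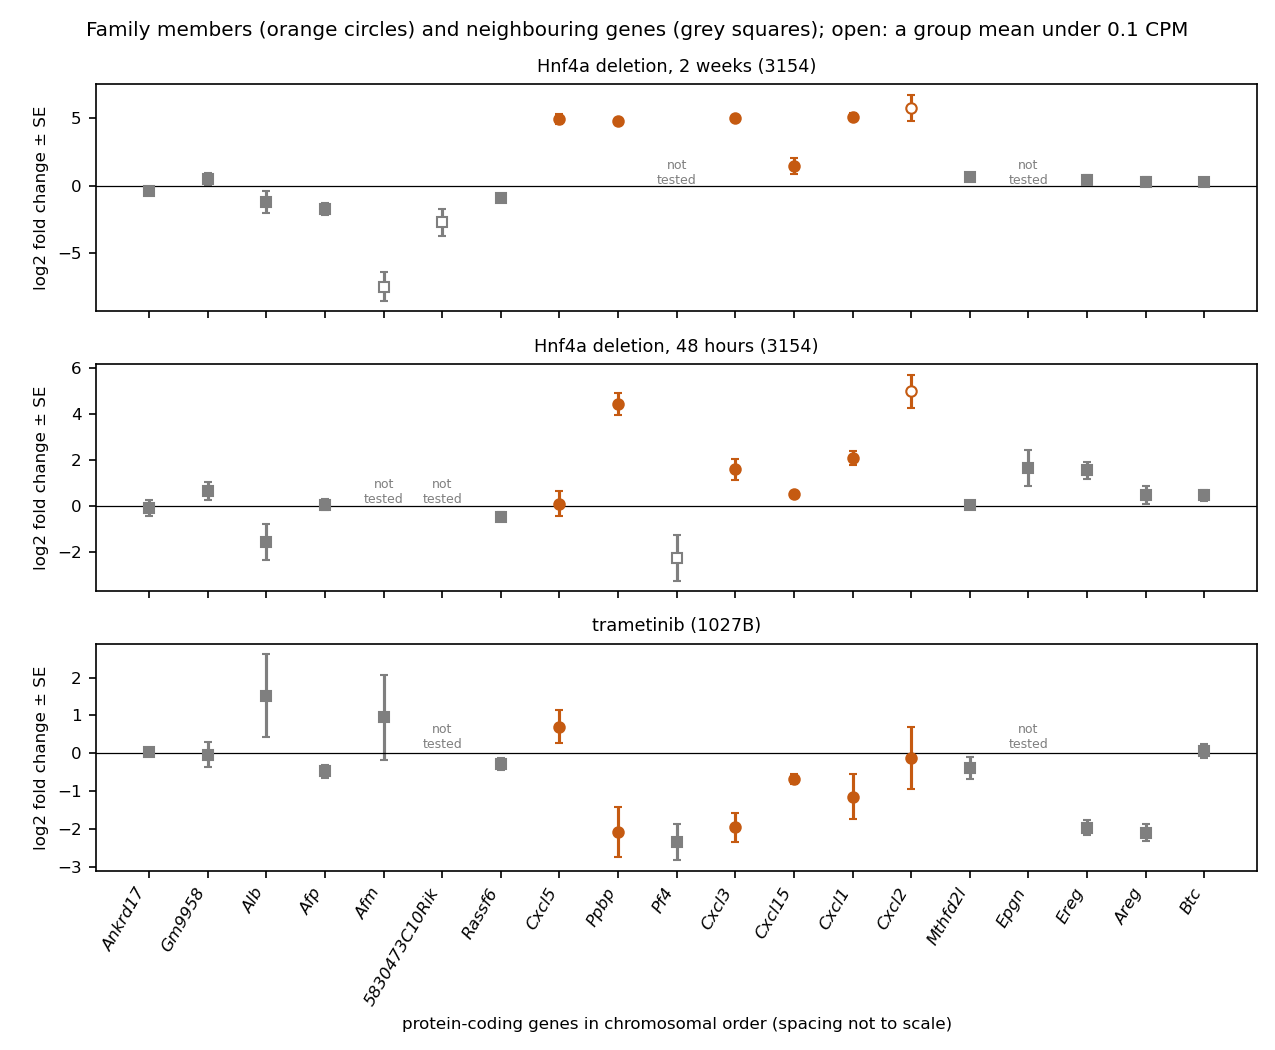
Log2 fold change with its SE for the family members (orange circles) and neighbouring protein-coding genes (grey squares) in chromosomal order; open symbols have a group mean under 0.1 CPM. At 2 weeks Cxcl1, Cxcl3, Cxcl5 and Ppbp lie between 4.76 and 5.12, and the neighbours tested lie at or below 0.62.

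Of the receptor genes Cxcr1, Cxcr2 and Ackr1, Cxcr2 was measured in mouse cultures, at a low level, and the others were not analysed here. It had 0.726 ± 0.561 CPM with ethanol and 1.66 ± 1.79 CPM (SD, n = 2) 2 weeks after 4OHT, which overlap (edgeR adjusted p = 0.467). In 1027B it stayed at or under the floor in all 3 groups, and in 3311 it had 0.191 ± 0.045 CPM (SD, n = 2) in vehicle and 0 counts with trametinib.

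The other pathway genes came from lists chosen with the earlier results in view. Genes given with a p-value were picked as called genes with the largest changes of their list, so these p-values are descriptive only. Their counts stand beside 9.81% of all genes called in either direction in the 2-week deletion, 31.0% and 27.7% in the 48-hour deletion with vehicle and with MRTX1133, 26.7% and 6.27% with trametinib and MRTX1133 in 1027B, and 39.0% in 3311. A list with a share near these values does not stand out from the rest of the genes. Of the list of neutrophil growth factors and inflammatory cytokines, 4 of 7 tested were called higher in the 2-week deletion (Csf2, Csf1, Il1a and Tnf) and 0 lower, a median log2 fold change of 2.91. Il1a, which encodes interleukin-1 alpha, went from 0.0225 ± 0.0318 to 1.77 ± 0.142 CPM (SD, n = 2; edgeR adjusted p = 0.013), and Csf1, the macrophage growth factor, from 0.295 ± 0.0909 to 6.17 ± 0.56 CPM (edgeR adjusted p = 0.00731). The ethanol libraries of Il1a were at or under the floor of 3 counts, so the size of its change is uncertain. At 48 hours with vehicle 4 of 5 were called higher (Csf2, Csf1, Lif and Tnf), with Csf2, or GM-CSF, at 0.168 ± 0.000307 and 1.41 ± 0.359 CPM (SD, n = 2; edgeR adjusted p = 0.00526). With MRTX1133 present 3 of 5 were called higher with 4OHT (Csf2, Csf1 and Tnf). In 1027B trametinib lowered Lif from 151 ± 24.5 to 46.8 ± 21.0 CPM (SD, n = 2; edgeR adjusted p = 0.00804), 1 of 5 tested, and in 3311 2 of 4 fell, Lif (161 ± 93.3 to 13.6 ± 2.55 CPM) and the chemokine Ccl20 (33.5 ± 2.84 to 3.53 ± 2.76 CPM).

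Among the other CXC chemokines, Cxcl16, which has a transmembrane form and lacks the neutrophil-attracting motif, was called higher in all 3 deletion comparisons. It went from 15.0 ± 0.8 to 58.3 ± 2.25 CPM at 2 weeks (SD, n = 2; log2 fold change 1.96, edgeR adjusted p = 0.00551), from 22.1 ± 1.59 to 50.0 ± 2.26 CPM at 48 hours with vehicle, and from 21.3 ± 0.848 to 86.8 ± 10.8 CPM with MRTX1133. Trametinib also raised it in 1027B, from 22.8 ± 8.61 to 62.4 ± 15.6 CPM (SD, n = 2; edgeR adjusted p = 0.0239). Cxcl17 rose at 48 hours, from 0.063 to 1.66 CPM with vehicle and from 0.156 to 3.27 CPM with MRTX1133. Its ethanol libraries with vehicle were at or under the floor of 3 counts. The list's counts were 1 of 2 higher at 2 weeks, 2 of 4 in each deletion comparison at 48 hours, and 1 higher (Cxcl16) and 1 lower (Pf4) of 4 with trametinib in 1027B.

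Of 14 genes for NF-kB subunits, kinases and inhibitors, 3 were called higher at 2 weeks, where 9.81% of all genes were called (Nfkb2, Nfkbie and Tnfaip3) and 1 lower (Ikbkg). Nfkbie, an inhibitor that NF-kB itself induces, went from 0.123 ± 0.0804 to 4.62 ± 0.433 CPM (SD, n = 2; edgeR adjusted p = 0.00799), and Tnfaip3, which encodes the inhibitor A20, from 8.56 ± 2.50 to 37.2 ± 8.61 CPM (edgeR adjusted p = 0.015). At 48 hours with vehicle 1 was called higher (Nfkbie) and 2 lower, Nfkbia (92.6 ± 12.5 to 40.6 ± 0.129 CPM; SD, n = 2; edgeR adjusted p = 0.0011) and Nfkbiz; with MRTX1133 present 5 were called higher (Rela, Relb, Nfkb2, Nfkbie and Ikbkb) and 1 lower (Nfkbiz). The calls thus ran in both directions, and the list's median log2 fold change was 0.36, 0.10 and 0.28 in these comparisons. Of the receptors and adaptors above NF-kB, the interleukin-1 receptor Il1r1 was called higher in all 3, from 18.8 ± 4.39 to 50.8 ± 2.19 CPM at 2 weeks (SD, n = 2; edgeR adjusted p = 0.0165) and from 10.7 ± 3.63 to 44.8 ± 2.38 CPM at 48 hours with vehicle (edgeR adjusted p = 0.00154). The interleukin-17 receptor chain Il17rc was called lower at 2 weeks, from 57.5 ± 0.994 to 33.4 ± 1.62 CPM (SD, n = 2). These counts were 1 higher and 1 lower of 10 at 2 weeks, 3 and 2 of 9 at 48 hours with vehicle, and 2 and 1 of 9 with MRTX1133.

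Of the 7 factors that act on AU-rich messages, 0 were called at 2 weeks by edgeR (2 at an unadjusted p under 0.05, and 2 by DESeq2), and 4 were called lower at 48 hours with vehicle: Zfp36, Zfp36l1, Zfp36l2 and Zc3h12a. Zfp36, or tristetraprolin, went from 77.0 ± 10.4 to 39.4 ± 2.25 CPM (SD, n = 2; edgeR adjusted p = 0.00285). With MRTX1133 present 2 were called lower with 4OHT (Zfp36l2 and Hnrnpd). In 1027B trametinib lowered Zfp36l2 (278 ± 12.8 to 122 ± 16.6 CPM) and raised Zfp36l1 (357 ± 58.2 to 763 ± 8.87 CPM), and with MRTX1133 the same 2 were called in the same directions (edgeR adjusted p = 0.0139 and 0.0468). Of the NF-kB genes in 1027B, trametinib came with 4 higher (Rela, Relb, Nfkbia and Ikbkg) and 1 lower (Bcl3) of 14, and MRTX1133 with Bcl3 lower. Of the receptors and adaptors, Myd88, the adaptor of the interleukin-1 and Toll-like receptors, was the 1 of 10 called with trametinib, higher at 27.4 ± 1.35 than 19.4 ± 0.672 CPM (SD, n = 2; edgeR adjusted p = 0.0299). In 3311 with trametinib, where 39.0% of all genes were called, 5 of 11 receptors and adaptors were called higher and 1 lower, 4 of 14 NF-kB genes higher, and 2 of 7 decay factors lower (Zfp36l2 and Khsrp). Il1rap, the shared chain of the interleukin-1 receptors, went there from 7.52 ± 1.81 to 42.5 ± 1.44 CPM (SD, n = 2; edgeR adjusted p = 0.000566). With MRTX1133 in 3154 after 4OHT edgeR called Cxcl16 (log2 fold change 0.79, edgeR adjusted p = 0.0263) and 0 genes of the other 4 lists, apart from the ERK targets. In those 4 lists DESeq2 called 1 of 5 growth factors and cytokines, 1 of 9 receptors and adaptors, 3 of 14 NF-kB genes and 2 of 7 decay factors, and 2, 1, 5 and 3 genes had an unadjusted p under 0.05.

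In the human lines the composition of the family was different. CXCL5 was the most counted member in H1651, and CXCL8, or interleukin-8, which mice lack, in H358. CXCL6 had at most 6 counts in any library and passed the filter in no table.

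Induction of the HNF4α construct in H1651 came with no called member: 0 of the 5 tested by edgeR (3 at an unadjusted p under 0.05, CXCL1, CXCL3 and CXCL5; 0 by DESeq2), where 1.42% of 17351 genes were called. CXCL5 had 249.0 and 198.5 CPM without doxycycline and 409 and 256 CPM with it, a log2 fold change of 0.57 ± 0.21 (SE). CXCL1 had 2.76 and 3.36 CPM against 5.62 and 4.41 CPM, and CXCL3 had 4.37 and 4.31 CPM against 6.01 and 7.28 CPM. These 3 did not overlap and were higher with doxycycline, on the log2 scale by 0.71 ± 0.22 (SE) for CXCL1 and 0.61 ± 0.18 (SE) for CXCL3. CXCL2 (23.2 and 29.8 CPM against 24.4 and 42.7 CPM) and CXCL8 (4.37 and 7.60 CPM against 5.86 and 8.56 CPM) overlapped. Fibroblast markers summed to 506 and 549.9 CPM without doxycycline and 312 and 326 CPM with it (6 of 6 listed), epithelial markers to 4419.7 and 4422 CPM against 5716 and 6204 CPM, and endothelial markers to 2.43 and 3.63 CPM against 4.32 and 4.46 CPM. Of the 9 neutrophil markers CSF3R alone was listed above 0, at 3.63 and 1.83 CPM without doxycycline and 1.34 and 0.971 CPM with it. None of these sums overlapped. Their part in the result was not tested.

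With trametinib in H1651 no gene was called: 0% of 18277 genes by edgeR (597 at an unadjusted p under 0.05; 47 by DESeq2) and 0 of the 5 members (3 unadjusted, CXCL1, CXCL2 and CXCL8; 1 by DESeq2). CXCL8 had 3.41 and 7.19 CPM in vehicle and 0.950 and 1.29 CPM with trametinib, a log2 fold change of -2.23 ± 0.44 (SE). CXCL2 had 10.3 and 9.65 CPM against 6.57 and 3.68 CPM, and CXCL1 had 1.39 and 1.09 CPM against 0.652 and 0.309 CPM. All 3 were lower with trametinib without overlap. CXCL3 was also lower without overlap, at 2.49 and 1.81 CPM against 1.79 and 0.701 CPM. CXCL5 had 6830 and 1111 counts in vehicle and 3837 and 614 counts with trametinib, so that replicate 1 stood far above replicate 2 in both groups and the groups overlapped (log2 fold change -0.61 ± 1.00 SE). With the replicate number as a block, all 5 members tested were called lower (CXCL5 by -0.71), where 1881 of 18277 genes were called in either direction. Same-numbered libraries correlated in their deviations (r = 0.623), but no label states that the numbers pair the samples. Fibroblast markers summed to 328 and 363 CPM in vehicle and 414 and 490.3 CPM with trametinib, epithelial markers to 6629 and 5874 CPM against 6927 and 6029 CPM, and endothelial markers to 1.32 and 2.21 CPM against 1.63 and 1.18 CPM. The part of these markers in the result was not tested.

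With trametinib in H358, 2 of the 4 members tested were called in opposite directions, where 46.8% of 18972 genes were called. CXCL8 had 36.3 and 49.4 CPM in vehicle (1402 and 1654 counts) and 2.08 and 2.63 CPM with trametinib (97 and 67 counts), and fell by 4.21 ± 0.21 (SE) on the log2 scale. CXCL1 had 6 and 7 counts in vehicle and 52 and 19 counts with trametinib (0.155 and 0.209 CPM against 1.12 and 0.746 CPM), and rose by 2.38 ± 0.43 (SE). Neither overlapped, and CXCL1 stayed at a low level. CXCL2 had 1.40 and 1.07 CPM against 0.945 and 0.628 CPM, and CXCL3 had 0.570 and 0.567 CPM against 0.473 and 0.550 CPM; both were lower without overlap and not called. CXCL5 was at 0 and 0 counts in vehicle and 3 and 0 counts with trametinib. Neutrophil markers summed to at most 0.0259 CPM in H358. Fibroblast markers summed to 37.3 and 33.1 CPM in vehicle and 148 and 119 CPM with trametinib (6 of 6 listed) and endothelial markers to 13.5 and 15.3 CPM against 28.1 and 28.1 CPM, while epithelial markers summed to 5534 and 5337 CPM against 3601 and 3882 CPM; their part in the result was not tested.

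**Figure D4:**
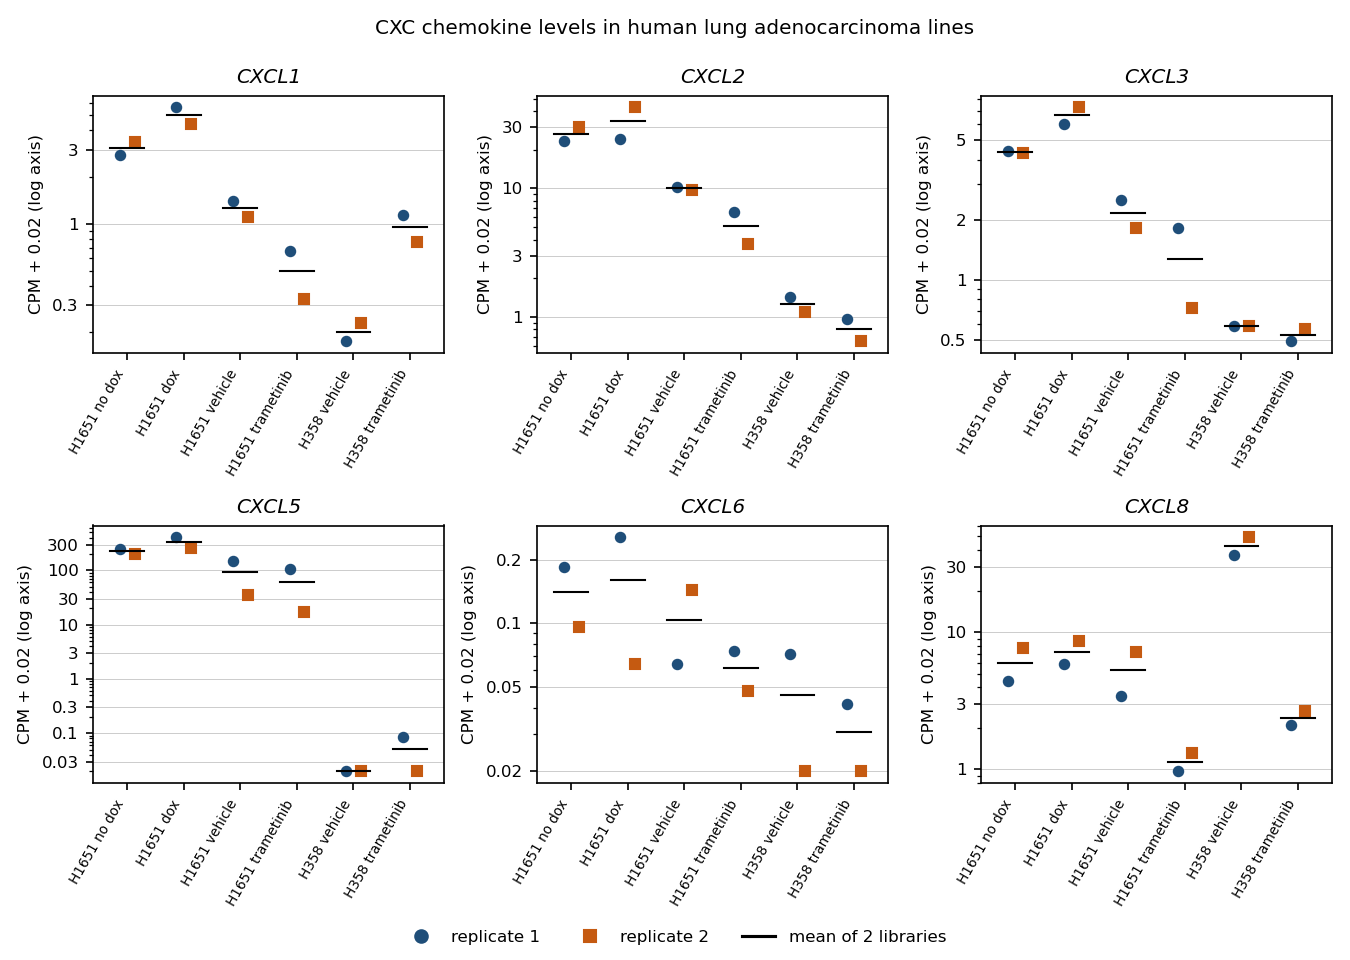
Level of each human family member (CPM + 0.02, log axis) in each library of H1651 and H358; circles are replicate 1, squares replicate 2 and bars the mean of 2 libraries. CXCL8 in H358 goes from a mean of 42.8 to 2.36 CPM with trametinib while CXCL1 goes from 0.182 to 0.932 CPM; the 3 tables (H1651 with and without dox, H1651 with vehicle or trametinib, H358) were scaled separately.

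In the pathway lists of the human lines, whose counts in H358 stand beside 46.8% of all genes called, 3 of 4 other CXC chemokines tested were called higher with trametinib in H358 (CXCL10, CXCL11 and CXCL17) and 2 of 5 growth factors and cytokines lower (CSF2 and LIF). LIF went from 61.0 ± 11.1 to 31.1 ± 1.53 CPM (SD, n = 2; edgeR adjusted p = 0.00108). Of 14 NF-kB genes 3 were called higher (RELB, NFKBIA and TNFAIP3) and 2 lower (BCL3 and CHUK), with NFKBIA at 41.7 ± 1.42 and 87.4 ± 12.2 CPM (SD, n = 2; edgeR adjusted p = 0.000339). Of 11 receptors and adaptors 5 were called higher and 3 lower, and of 7 decay factors 2 higher (ZFP36L1 and ZFP36L2) and 4 lower. With doxycycline in H1651 edgeR called CXCL16, from 33.3 ± 1.14 to 50.6 ± 5.46 CPM (SD, n = 2; edgeR adjusted p = 0.0383), and 0 genes of the other 4 lists, apart from the ERK target DUSP6. In those 4 lists DESeq2 called 1 of 6 growth factors and cytokines and 0 genes of the rest, and 3 growth factors and cytokines, 1 receptor or adaptor, 3 NF-kB genes and 1 decay factor had an unadjusted p under 0.05.

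Genes whose level ran most closely with a member across libraries were found for those tested in every table of a species, after centring each table on its own mean; libraries share depth and treatment, so the correlations describe these libraries only. For Cxcl1, over 22 mouse libraries and among 12598 genes, they were Cdk17 (Pearson r = 0.94, Spearman rho = 0.90), F2r (r = 0.92, rho = 0.89) and Csf1 (r = 0.92, rho = 0.92), but by rank correlation Gm49890, Pgm5 and Nosip came first (rho from 0.94 to 0.93). For CXCL8, over 12 human libraries and among 15002 genes, they were SLC16A3, a lactate exporter (r = 0.99, rho = 0.97), RAP2C (r = 0.98, rho = 0.97) and COTL1 (r = 0.98, rho = 0.96), and by rank correlation the ERK target DUSP6 came first (rho = 0.99). For CXCL1 they were KLF5 (r = 0.97), ZNF860 (r = 0.97) and ITGB8 (r = 0.94), with STK36 (rho = 0.97) and PTPRG (rho = 0.95) first by rank. They were for CXCL3 ANKRD17 (r = 0.97), ANKMY1 (r = 0.89) and UBR4 (r = 0.86), and for CXCL2 the named gene was TGFBR2 (r = 0.89) beside 2 genes without a symbol.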

How the data were processed

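Poly(A) RNA was sequenced in 34 libraries (22 mouse, 12 human), prepared with a directional kit per the labels' protocols. As deposited by the authors, the values are unnormalised read counts for each gene, in 7 tables. The submitters' processing notes list cutadapt 3.5, STAR 2.7.6a and featureCounts 1.6.3, and the builds mm10, mm39 and hg38, with no order or role; which mouse build a table used and the strand setting of the counting are not given in the sources used here. Coordinates and promoters come from GENCODE M21 and RefSeq on GRCm38. 1 allele shared by the mouse cultures is not reported here. Columns were matched to samples by their titles, except that those of the 3311 table carry no culture name and were matched because the table is named for 3311; 0 columns of values were left unmapped.

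Each table was fitted alone with edgeR 4.0.16 (R 4.3.3, limma 3.58.1) over all its groups: TMM scaling, the default filter on low counts, quasi-likelihood test, and Benjamini-Hochberg adjustment over all genes tested, with an adjusted p under 0.05 called. CPM were computed with the TMM factors (0.876 to 1.09), so levels in different tables were scaled separately and were not tested against each other. The floor was 3 counts. Counting without molecular identifiers treats reads as independent, so counting intervals cover counting error only. The common biological coefficient of variation was 0.0949 to 0.193, and the chi-square per degree of freedom between replicates was 5.40 to 79.5, so no 2 libraries differed by less than the sampling noise. On simulated data with 200 genes changed 3-fold, the fit recovered 75% of them for the 2-week deletion (8.54% of calls false), 73% for the deletion at 48 hours with vehicle (7.01%), 72.5% for trametinib in 1027B (5.23%), 81.5% in 3311 (10.4%), 83% in H358 (9.29%) and 71% in H1651 (13.9%), and 86% for doxycycline in H1651 (18.1%).

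The members and lists were chosen with earlier results of these data known. Named were every member, every receptor gene, up to 2 called genes of at least 1 CPM per list and comparison with the largest change, and the 3 genes most alike each member tested in every table of its species (Pearson r of log2 CPM, prior count 2). Many but not all genes behind a count of 5 or fewer are also named, after their values were seen. Replicate numbers are shared between groups. In 1027B the deviations of same-numbered libraries correlated between all 3 pairs of groups (r = 0.243, 0.372 and 0.414), so the numbers were taken to pair the samples from the data; no label gives a shared origin. Blocked values stand beside the results there. As alternatives, the test was DESeq2 (1.42.0), the scaling RLE or upper-quartile, or the filter none or at least 10 counts in every library; others were the replicate block, only the groups compared, an absolute log2 fold change of at least 1, and each library left out.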

Additional observations from a re-analysis of the deposited data

Results flagged for a closer look

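CXCL1, a ligand of CXCR2, went opposite ways with 20 nM trametinib in the human lines: the log2 fold change was -1.36 in H1651, with both trametinib libraries below both vehicle libraries, and 2.38 in H358, with both above. The difference between the lines was not tested, the tables were scaled separately, and CXCL1 was near or below 1 CPM in both lines.

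Cxcl15, the lung epithelial chemokine, went opposite ways with MRTX1133 in the mouse organoids. The log2 fold change was -0.88 in 1027B (20 nM), 1.08 in 3154 with ethanol and 0.41 in 3154 with 4OHT (3 nM), with no overlap between the libraries of the groups in any of these comparisons. The dose and genotype differ between the cultures, and the difference was not tested.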

How the results depend on the processing

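Members called are given per comparison. With at least 10 counts in every library they numbered 3 in the 2-week deletion, 2 and 1 in the 48-hour deletion with vehicle and with MRTX1133, 0 with MRTX1133 in 3154 with ethanol and 1 with trametinib in H358. With only the groups compared they numbered 3 in the 48-hour deletion with vehicle, 0 with MRTX1133 in 3154 with ethanol and 1 with 4OHT; RLE scaling gave 0 with ethanol. DESeq2 called 2 with MRTX1133 in 1027B and 1 with trametinib in H1651. An absolute log2 fold change of at least 1 left 1 with trametinib and 0 with MRTX1133 in 1027B. The replicate block gave 5 with trametinib, 2 with MRTX1133 and 3 between them in 1027B, and, where the numbers are not known to pair the samples, 6 in the 2-week deletion (Cxcl15 added, with a log2 fold change of 1.69), 4 with doxycycline and 5 with trametinib in H1651. Same-numbered libraries there correlated in their deviations (r = 0.318 and 0.623), as in the 2-week 3154 table (0.427), H358 (0.318) and 3311 (0.126), each from 1 pair of groups; at 48 hours in 3154 r ran from -0.251 to 0.549. Leaving out 1 library gave 3 to 4 in the 48-hour deletion with vehicle, 0 to 1 with MRTX1133 in 3154 with ethanol, 1 to 2 with trametinib and 0 to 0 with MRTX1133 in 1027B, and 0 to 1 in each H1651 comparison. The direction changed when 1 library was left out for the interaction of Cxcl1 (-0.57 to 0.34), Cxcl5 (-1.54 to 0.12) and Ppbp (-1.44 to 0.21), and for MRTX1133 against trametinib of Cxcl2 (-0.54 to 1.52) and Cxcl5 (-0.23 to 1.06); none of these was called. It also changed in the deletion at 48 hours for Cxcl5 (-0.49 to 1.17 with vehicle, -0.78 to 0.10 with MRTX1133) and Cxcl15 (-0.36 to 0.01 with MRTX1133), and with MRTX1133 in 3154 for Cxcl1 (-0.24 to 0.67), Cxcl5 (-0.14 to 1.52) and Ppbp (-0.94 to 0.72) in ethanol and Cxcl3 (-0.02 to 0.18) and Cxcl5 (-0.43 to 0.29) in 4OHT. In 1027B it changed for Cxcl2 with trametinib (-1.28 to 0.95) and for Cxcl1 (-0.81 to 0.93), Cxcl2 (-0.66 to 1.31) and Ppbp (-0.36 to 0.73) with MRTX1133, and in H1651 for CXCL2 (-0.12 to 0.69) and CXCL8 (-0.08 to 0.72) with doxycycline and CXCL5 with trametinib (-2.42 to 0.81). The cause was not tested. Over all genes the calls moved by more than 1.5 times, from edgeR to DESeq2 and the replicate block, from 1421 to 2311 and 4563 in the 2-week deletion, from 913 to 1636 and 3515 with MRTX1133 in 1027B, from 0 to 712 and 2050 between the inhibitors, from 247 to 451 and 3048 with doxycycline, and from 0 to 47 and 1881 with trametinib in H1651. DESeq2 called 330 genes against 54 with MRTX1133 in 3154 with ethanol, 1342 against 717 with 4OHT and 36 against 0 for the interaction; the block called 6540 against 3880 with trametinib in 1027B. With only the groups compared, all-gene calls numbered 3154 against 4795 in the 48-hour deletion with vehicle, 0 against 54 with MRTX1133 in ethanol, 3932 against 717 in 4OHT and 1 against 0 between the inhibitors, and with no filter 2 against 0 with trametinib in H1651. Leaving out 1 library gave 395 to 2790 in the 2-week deletion, 1668 to 5964 and 1745 to 2805 in the 48-hour deletion with vehicle and with MRTX1133, 0 to 309 and 0 to 23 with MRTX1133 in ethanol and in 4OHT, 1336 to 2754 with trametinib and 138 to 349 with MRTX1133 in 1027B, 0 to 2 between them, 3772 to 6298 in 3311, 232 to 412 with doxycycline and 0 to 193 with trametinib in H1651. A log2 limit of 1, which removes calls by construction, left 2518 and 2196 in the 48-hour deletion with vehicle and with MRTX1133, 323 with MRTX1133 in 4OHT, 1768 with trametinib and 417 with MRTX1133 in 1027B, 3386 in 3311, 127 with doxycycline and 4118 in H358. Of 730 log2 fold changes of members under the alternatives, 23 lost and 26 gained a call, and 35 had another sign than in the reported fit, none of them for a member called there. Depth limits Cxcl2 with ethanol, Cxcl5 in 3311, and CXCL5 and CXCL6 in H358. Among the listed genes it also limits Il1a with ethanol at 2 weeks and Cxcl17 with ethanol and vehicle at 48 hours.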
